A study of Mus musculus with 23 samples.

Results

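The genes described here are 36 mouse genes of homologous recombination and of the Fanconi anaemia pathway, a set named for its function and followed across fibroblasts that differ in their p53 genotype. A gene was represented by the probe set that carries its symbol and has the highest mean over all arrays. That gave 35 of the 36 genes among 18193 genes with a probe set, and all 35 were among the 15266 genes tested. Xrcc2 was not analysed here. The members were chosen by function, with earlier results from these arrays already known, so their shared direction is a description of a chosen set and not independent evidence.

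Homologous recombination repairs a broken DNA double strand by copying the intact sister chromatid. The ends are first trimmed to single strands, the BRCA proteins and their helpers then prepare these strands to pair with the sister, and the joined molecules are finally dissolved or cut. The Fanconi proteins detect crosslinks between the DNA strands and attach ubiquitin to the FANCD2 and FANCI pair, which brings in nucleases and the recombination machinery. Many of these genes are transcribed mainly in S and G2 phase, so their RNA in a culture is generally tied to how many cells are replicating.

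RNA came from mouse embryonic fibroblasts, primary cells of the embryo's connective tissue, and was hybridised to 23 Affymetrix arrays. Every sample, controls included, had received mutant H-RasV12 by retrovirus, an oncogene that drives fibroblasts with working p53 into premature senescence. The study altered the transactivation domains through which p53 turns on its targets. The group 25,26 (5 arrays) carried the L25Q and W26S changes in the first domain, 53,54 (3 arrays) carried W53Q and F54S in the second, and QM (3 arrays) carried all of these changes. Each mutant allele was a knock-in behind a stop cassette (LSL) that adenoviral Cre recombinase removes. Groups follow the sample titles. The WT group (6 arrays) joined 3 arrays of LSL-WT cells given Adeno-Cre with 3 of WT cells given Adeno-Cre. The Null group (6 arrays) joined 3 arrays of LSL-WT cells given Adeno-Empty, in which the cassette stays, with 3 of p53-null cells given Adeno-Cre. The genotype label of WT replicate 6, titled WT with Cre, reads LSL-WT, and that of Null replicate 6 adds the word knock-in. The labels give neither embryonic age nor time after infection. The strain background was 129/Sv for 4 of 5 arrays of 25,26, for 1 of 3 of 53,54, for 2 of 3 of QM, for 3 of 6 of WT and for 4 of 6 of Null, and mixed for the rest. The labels do not say which arrays came from separate embryos or cultures, so p-values measure only the spread between these samples, which may be technical in part.

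Median intensities ran from 59.7 to 63.95 over the 23 arrays, and the number of arrays limits the precision. All 9 fibroblast markers listed were measured, and their mean log2 level lay between 12.33 and 13.79 on every array. Of 6 macrophage markers, Ptprc and Itgam were above the low-signal limit (log2 4.79) on 0 arrays, Adgre1 on 13 and Csf1r, Lyz2 and Cd68 on all 23. Of 5 endothelial markers, Pecam1 and Emcn were above it on 0 arrays, Tek on 9 and Cdh5 and Kdr on all 23. Of 6 epithelial markers, Krt14 was above it on 17 arrays, Cdh1 on 21 and Epcam, Krt5, Krt8 and Krt18 on all 23. Some of these markers differed with p53 genotype. In WT against Null 3 of 9 fibroblast markers fell, Dcn (-1.09), Col3a1 (-0.92) and Pdgfrb (-0.83), with a list median of -0.48, and Cd68 (1.25) and Krt18 (0.90) rose. In 53,54 Cd68 (1.86) and Krt18 (1.10) rose and 0 of 9 fibroblast markers were called, with a list median of -0.40. Of all genes tested, 11.8% were lower and 10.9% higher in WT, and 10.3% lower and 9.22% higher in 53,54. The part of the markers in the results was not tested. The genotypes were checked by Cdkn1a, Mdm2, Ccng1, Zmat3 and Phlda3, long-known genes that p53 activates: 5 of 5 were higher than in Null in WT, in 25,26 and in 53,54, and 0 of 5 in QM. Xist, RNA of the inactive X chromosome in female cells, lay above a log2 level of 8 on 4 of 5 25,26, 1 of 3 53,54, 2 of 3 QM, 4 of 6 WT and 1 of 6 Null arrays, so sex was uneven between the groups.

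Promoter windows of 300 bases, from 250 before to 50 after the transcription start, were found for 28 of the 36 genes in RefSeq's mouse table (GRCm38.p6). The first listed window was used for the 5 genes with several. Shown are the 2 genes with a window whose RNA fell most in WT, Rad51ap1 and Rad54l, and the 2 whose RNA differed least, Fancc and Chek2. Capitals mark the letters of any motif searched.

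Rad51ap1 promoter, GRCm38.p6 chr6:126939538-126939837, strand -: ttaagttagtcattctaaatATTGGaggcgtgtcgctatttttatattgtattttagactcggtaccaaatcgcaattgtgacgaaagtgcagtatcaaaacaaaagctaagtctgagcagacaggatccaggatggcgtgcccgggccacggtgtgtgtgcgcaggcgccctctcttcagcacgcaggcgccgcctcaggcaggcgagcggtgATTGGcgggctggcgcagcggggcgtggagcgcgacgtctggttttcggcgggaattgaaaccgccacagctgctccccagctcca
Rad54l promoter, GRCm38.p6 chr4:116123641-116123940, strand -: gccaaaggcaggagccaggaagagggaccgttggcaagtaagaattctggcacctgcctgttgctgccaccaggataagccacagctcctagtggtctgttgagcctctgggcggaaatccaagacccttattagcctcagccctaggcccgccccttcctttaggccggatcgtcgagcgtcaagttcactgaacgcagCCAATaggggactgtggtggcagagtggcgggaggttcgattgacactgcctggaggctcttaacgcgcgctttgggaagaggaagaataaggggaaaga
Fancc promoter, GRCm38.p6 chr13:63431696-63431995, strand -: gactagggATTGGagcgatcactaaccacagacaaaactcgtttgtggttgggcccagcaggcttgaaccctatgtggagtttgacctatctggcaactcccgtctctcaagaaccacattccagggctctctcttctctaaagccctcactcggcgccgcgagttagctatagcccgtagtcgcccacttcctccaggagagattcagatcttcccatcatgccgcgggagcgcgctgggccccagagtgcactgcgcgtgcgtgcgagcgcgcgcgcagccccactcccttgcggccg
Chek2 promoter, GRCm38.p6 chr5:110839733-110840032, strand +: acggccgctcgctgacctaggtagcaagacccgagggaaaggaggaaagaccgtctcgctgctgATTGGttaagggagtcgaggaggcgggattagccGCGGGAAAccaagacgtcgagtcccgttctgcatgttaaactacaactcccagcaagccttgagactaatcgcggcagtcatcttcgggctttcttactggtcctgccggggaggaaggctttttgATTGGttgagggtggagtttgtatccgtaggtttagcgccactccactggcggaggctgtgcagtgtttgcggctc

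3 motifs were searched on both strands: E2F words (TTTCCCGC, TTTGGCGC, TTTCGCGC or TTTGCCGC), CHR words (TTTGAA or TTTAAA) and the CCAAT box (CCAAT). These are letters known from promoters of genes with cell-cycle transcription. No word belongs to more than 1 motif. The Rad51ap1 window holds CCAAT on the minus strand, at -230 and at -36, counted in bases from the start site to the first letter. Rad54l holds it on the plus strand at -50, and Fancc on the minus strand at -242. Chek2 holds CCAAT on the minus strand at -186 and -26 and is the only printed window with an E2F word, read as GCGGGAAA at -152. Of the 28 windows, 7 (25.0%) hold an E2F word, against 626 of 27025 genes (2.32%) in the whole table. CCAAT is in 16 of the 28 (57.1%) against 37.9% of genes, and a CHR word is in 3 (10.7%) against 27.8%. Within the set, an E2F word is in 4 of the 22 windows of genes that were lower in WT and in 3 of the 6 of genes that were not. CCAAT is in 12 of these 22 windows and in 4 of these 6. These are matches of letters, not measured binding sites.

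The first comparison asked how wild-type p53 changes RNA levels of the set in Ras-expressing cells. All values are on the log2 scale, where a difference of 1 is 2-fold, and a gene is called when its adjusted p in limma, over all 15266 genes, is below 0.05. With WT against Null, 28 of the 35 genes fell and 0 rose, against 11.8% of all genes tested that were lower and 10.9% that were higher. The median difference over the 35 genes was -0.99, from -2.05 for Exo1 to 0.44 for Rad51d, and the median over all genes was 0.00. Of the 35, 16 fell at least 2-fold, against 2.19% of all genes. For 23 of the 35 every WT array lay below every Null array, against 5.16% of genes. These are bulk samples, so fewer cells that carry an RNA and less of it per cell cannot be told apart.

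**Figure D1:**
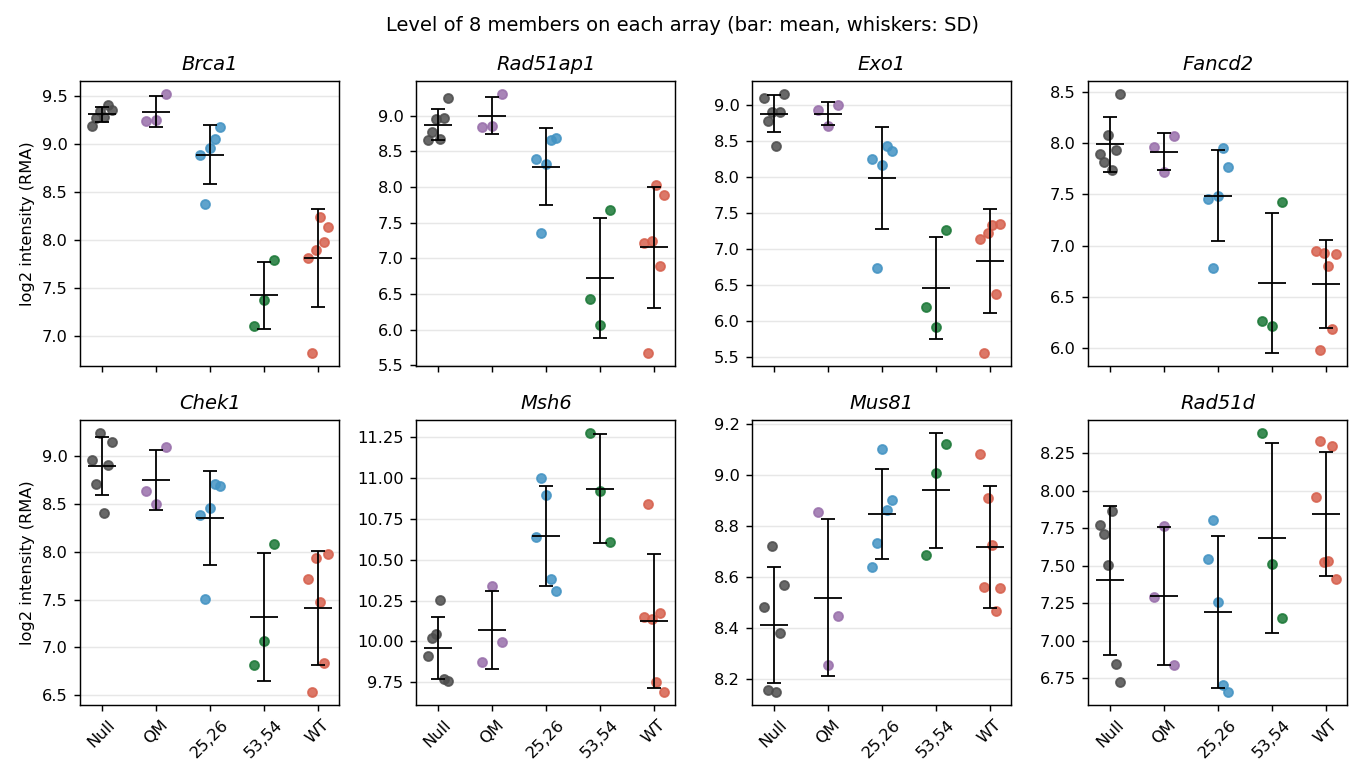
Log2 level (vertical axis) of 8 genes of the set on each of the 23 arrays, by p53 group (horizontal axis); points are arrays and bars group means. Brca1, Rad51ap1, Exo1, Fancd2 and Chek1 are high in Null and QM and low in WT and 53,54, whereas Msh6 and Mus81 are not lower in any group and the Rad51d values of the groups overlap.

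BRCA1, with its partner BARD1, prepares broken ends and recruits PALB2, which in turn carries BRCA2; BRIP1 is a helicase bound to BRCA1. In this role 4 of 5 genes fell in WT. Brca1 ran from 9.19 to 9.41 (median 9.32) on the 6 Null arrays and from 6.83 to 8.24 (median 7.94) on the 6 WT arrays. No WT array reached the lowest Null array, and the WT arrays were much more widely spread. The log2 difference was -1.50 ± 0.18 (SE of the fit, as for all differences; adjusted p = 3.54e-06). On the remaining arrays Brca1 lay at 8.89, 8.38, 8.96, 9.05 and 9.18 in 25,26, at 7.10, 7.38 and 7.80 in 53,54 and at 9.24, 9.26 and 9.53 in QM. The 53,54 arrays thus stayed within the WT range, the QM arrays at or above the Null range's lower end, and the 25,26 arrays between WT and Null.

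Brip1 showed the smallest error of the role relative to its change. It ran from 6.73 to 7.42 (median 7.02) in Null and from 5.25 to 5.97 (median 5.53) in WT, without overlap. The difference was -1.44 ± 0.13 (adjusted p = 5.59e-08). In 25,26 it lay at 6.31, 6.12, 6.24, 6.36 and 6.46, below all Null and above all WT arrays. In 53,54 it was 5.37, 5.20 and 5.43, in or just under the WT range. In QM it was 6.71, 7.12 and 6.73, in or just under the Null range.

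Palb2 ran from 6.57 to 7.74 (median 7.02) in Null and from 5.79 to 6.23 (median 6.01) in WT. The groups did not overlap and the difference was -1.08 ± 0.17 (adjusted p = 8.19e-05). Brca2 fell by 0.99 ± 0.17 (adjusted p = 1.38e-04), with Null at 8.37 to 8.73 and WT at 7.07 to 8.05. Bard1, the dimmest gene of the set in Null (mean 5.31), was the exception. It ran from 5.06 to 5.52 in Null and from 4.51 to 5.31 in WT, and its difference of -0.27 ± 0.12 did not pass (adjusted p = 0.132).

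Rad51b, Rad51c, Rad51d and Xrcc3 encode adaptor proteins that assist strand pairing, and 3 of these 4 genes fell in WT. Rad51b ran from 5.61 to 6.00 (median 5.82) in Null and from 4.34 to 5.27 (median 4.80) in WT. There was no overlap, and the difference was -1.06 ± 0.14 (adjusted p = 1.39e-05). Rad51c, whose protein is shared by complexes with RAD51B and with XRCC3, ran from 7.51 to 7.87 (median 7.57) in Null and from 6.70 to 7.26 (median 7.08) in WT. Its change was smaller, -0.57 ± 0.08, but the arrays were tight and again did not overlap (adjusted p = 4.14e-05). Xrcc3 ran from 6.59 to 7.18 (median 6.998) in Null and from 6.16 to 6.86 (median 6.66) in WT. These ranges overlapped, and the difference of -0.40 ± 0.12 passed with an adjusted p of 0.0201. That call ended without WT replicate 3, WT replicate 6, Null replicate 1 or Null replicate 2, with differences of -0.33, -0.33, -0.36 and -0.36 and adjusted p of 0.0542, 0.0551, 0.0504 and 0.0508. Rad51d did not pass: it ran from 6.72 to 7.86 in Null and from 7.41 to 8.33 in WT (0.44 ± 0.26, adjusted p = 0.274). Another Rad51d probe set with signal on all 23 arrays was higher in WT (0.36 ± 0.11, adjusted p = 0.0312 over all probe sets tested). A further one did not pass (0.37 ± 0.17, adjusted p = 0.182 over all probe sets tested).

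All 3 genes for accessory factors of strand exchange fell. RAD51AP1 helps strands to pair, and the products of Rad54l and Rad54b move along DNA to drive the exchange. Rad54l ran from 8.02 to 8.57 (median 8.52) in Null and from 6.12 to 7.12 (median 6.81) in WT, a difference of -1.70 ± 0.18 (adjusted p = 8.73e-07). Rad54b ran from 6.20 to 6.80 (median 6.46) in Null and from 4.28 to 5.48 (median 5.07) in WT, a difference of -1.51 ± 0.19 (adjusted p = 5.09e-06). Neither gene's WT arrays overlapped the Null arrays. Rad51ap1 had the widest spread in WT, from 5.67 to 8.02 (median 7.23), against 8.67 to 9.24 (median 8.86) in Null. Its difference was -1.72 ± 0.32 (adjusted p = 4.40e-04). In 25,26 Rad51ap1 lay at 8.39, 7.36, 8.33, 8.66 and 8.69, in 53,54 at 6.43, 6.07 and 7.68 and in QM at 8.84, 8.85 and 9.30. All QM arrays stood in or above the Null range, while 1 array of 25,26 and all of 53,54 stood within the WT range.

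Among the genes that trim DNA ends and dissolve joined molecules, 3 of 4 fell. Exo1, an exonuclease that trims ends, had the largest fall of the set. It ran from 8.43 to 9.15 (median 8.90) in Null and from 5.55 to 7.34 (median 7.17) in WT, a difference of -2.05 ± 0.31 (adjusted p = 4.77e-05). Its arrays were 8.24, 6.73, 8.16, 8.43 and 8.36 in 25,26, 6.19, 5.90 and 7.26 in 53,54 and 8.92, 8.70 and 9.0 in QM. 53,54 stayed inside the WT range and QM inside the Null range, and 4 of the 5 arrays of 25,26 lay above all WT arrays. Blm, the helicase mutated in Bloom syndrome, ran from 8.29 to 8.68 (median 8.56) in Null and from 6.40 to 7.44 (median 7.18) in WT (-1.48 ± 0.17, adjusted p = 1.69e-06). Recql4, another RecQ helicase, ran from 6.97 to 7.40 (median 7.11) in Null and from 5.93 to 6.35 (median 6.16) in WT. It had the lowest adjusted p of the set, 5.43e-08, for a difference of -0.998 ± 0.09. Neither helicase overlapped between the groups. Rmi1, a scaffold that works with BLM, ran from 9.12 to 9.57 in Null and from 8.71 to 9.25 in WT and did not pass (-0.29 ± 0.11, adjusted p = 0.0708).

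The Fanconi core complex is the ubiquitin ligase of the pathway; FANCL is its catalytic subunit and FANCM the DNA translocase that anchors it. In WT 5 of its 6 genes fell. Fancb ran from 7.54 to 8.29 (median 8.05) in Null and from 5.67 to 6.90 (median 6.71) in WT, without overlap (-1.55 ± 0.25, adjusted p = 1.12e-04). Fancb lies on the X chromosome, and sex was uneven between the groups. When Xist was added as a covariate, its difference was -1.33 (adjusted p = 4.79e-04). Fanca ran from 7.95 to 8.35 (median 8.11) in Null and from 6.69 to 7.77 (median 7.44) in WT (-0.80 ± 0.15, adjusted p = 4.64e-04). Fancl ran from 8.61 to 9.28 (median 9.02) in Null and from 7.49 to 8.54 (median 8.31) in WT (-0.83 ± 0.21, adjusted p = 0.00667). The Null and WT arrays of both genes were apart. Smaller falls were measured for Fancm (-0.45 ± 0.12, adjusted p = 0.0102) and Fancg (-0.54 ± 0.17, adjusted p = 0.0263). The Null (6.27 to 7.72) and WT (6.13 to 6.33) ranges of Fancg overlapped. Fancg was not called without Null replicate 2 (-0.50, adjusted p = 0.0587) or without the arrays numbered 2 in their titles (-0.28, adjusted p = 0.0736). Nor was it called with the compared arrays alone, LSL-WT Cre alone as WT or the mean of all its probe sets. Its other probe set, with signal on all 23 arrays, did not pass (-0.11 ± 0.13, adjusted p = 0.692 over all probe sets tested). Fancc hardly differed, from 7.48 to 8.002 in Null and from 7.25 to 7.66 in WT (-0.10 ± 0.09, adjusted p = 0.525).

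FANCD2 and FANCI are the pair to which the core complex attaches ubiquitin, and USP1 is the enzyme that removes it; all 3 genes fell. Fancd2 ran from 7.73 to 8.48 (median 7.91) in Null and from 5.98 to 6.94 (median 6.86) in WT (-1.36 ± 0.22, adjusted p = 1.13e-04). Fanci ran from 7.59 to 8.13 (median 7.70) in Null and from 6.62 to 7.27 (median 6.97) in WT (-0.86 ± 0.16, adjusted p = 5.30e-04). Usp1 ran from 11.31 to 12.30 (median 11.98) in Null and from 9.89 to 11.25 (median 10.998) in WT (-1.05 ± 0.25, adjusted p = 0.00331). None of the 3 overlapped between the groups. For Fancd2 the 25,26 arrays lay at 7.46, 6.78, 7.48, 7.95 and 7.76, the 53,54 arrays at 6.27, 6.22 and 7.42 and the QM arrays at 7.96, 7.71 and 8.06.

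EME1 and MUS81 form 1 nuclease that cuts joined DNA molecules; whether their RNAs differed from each other in response was not tested. Eme1 ran from 8.17 to 8.75 (median 8.46) in Null and from 6.24 to 7.51 (median 7.08) in WT, without overlap (-1.49 ± 0.19, adjusted p = 8.16e-06). Mus81 ran from 8.15 to 8.72 (median 8.43) in Null and from 8.47 to 9.08 (median 8.64) in WT, and its difference of 0.31 ± 0.13 did not pass (adjusted p = 0.0985). On the second Mus81 probe set the difference was 0.38 ± 0.09, with an adjusted p of 0.00444 over all probe sets tested.

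Of the 5 checkpoint genes 4 fell. ATR, switched on by TOPBP1, is the kinase that senses stalled replication and activates CHK1; ATM senses double-strand breaks and activates CHK2. Topbp1 ran from 11.36 to 11.73 (median 11.48) in Null and from 10.27 to 10.80 (median 10.61) in WT (-0.90 ± 0.11, adjusted p = 4.75e-06). Chek1 ran from 8.40 to 9.25 (median 8.93) in Null and from 6.54 to 7.97 (median 7.59) in WT (-1.48 ± 0.26, adjusted p = 2.57e-04). Both were without overlap. Atr ran from 8.02 to 8.41 (median 8.30) in Null and from 7.11 to 8.12 (median 7.71) in WT, with overlapping ranges (-0.55 ± 0.14, adjusted p = 0.00697). Another Atr probe set with signal on all 23 arrays did not pass (-0.30 ± 0.11, adjusted p = 0.0816 over all probe sets tested). Atr was not called with the p53-null Cre arrays alone as Null (adjusted p = 0.0501). Atm fell by 0.44 ± 0.12 (adjusted p = 0.00895). Its other probe set, with signal on all 23 arrays, did not pass (-0.67 ± 0.35, adjusted p = 0.253 over all probe sets tested). The Atm call ended with the mean of its probe sets (adjusted p = 0.0542) and with LSL-WT Cre alone as WT (adjusted p = 0.0772). Chek2 ran from 7.40 to 8.12 in Null and from 7.60 to 8.46 in WT and did not pass (0.12 ± 0.15, adjusted p = 0.641). Of the checkpoint kinases, then, the RNA of CHK1 was lower and that of CHK2 not measurably changed; whether the pair differed from each other was not tested.

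The last role holds Rad18, a ubiquitin ligase of damaged replication forks, Esco2, which acetylates cohesin to hold sister chromatids together in S phase, and Msh6, a mismatch-recognition protein. Rad18 ran from 8.83 to 9.49 (median 9.27) in Null and from 7.61 to 8.46 (median 8.15) in WT (-1.15 ± 0.16, adjusted p = 1.69e-05). Esco2 ran from 6.93 to 7.64 (median 7.21) in Null and from 4.30 to 6.36 (median 5.60) in WT (-1.76 ± 0.27, adjusted p = 5.49e-05). Neither overlapped. Msh6 ran from 9.76 to 10.25 (median 9.97) in Null and from 9.69 to 10.84 (median 10.14) in WT. The WT range enclosed the Null range, and the difference of 0.17 ± 0.17 did not pass (adjusted p = 0.579).

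The WT comparison holds a pair of separate experiments: LSL-WT cells with Cre against the same cells with Empty virus, which restores p53, and WT against p53-null cells, both with Cre. In the first, 24 of 35 genes were lower with Cre and 0 higher, against 6.89% of all genes lower; the median was -1.06. Its arms also differ in Cre itself, whose part cannot be told apart from that of p53 there; both arms of the second experiment received it. In the second experiment 22 were lower and 0 higher, against 7.19% of all genes lower; the median was -0.85. Of the genes, 21 were called in both, which is 87.5% of the 24 and 95.5% of the 22. The difference had the same sign for 32 of 35 genes, and the correlation of the values across the 35 genes, which share arrays and are not independent replicates, was 0.92. The overlap of calls, the shared signs and the correlation were not computed over all genes. They are therefore not shown to be particular to the set. Exo1, for example, fell by 2.29 ± 0.45 (adjusted p = 0.00202) on restoration and by 1.81 ± 0.45 (adjusted p = 0.00913) in the second experiment. Recql4 fell by 1.16 ± 0.12 (adjusted p = 2.47e-06) and by 0.83 ± 0.12 (adjusted p = 9.78e-05). The difference between the experiments was tested itself: limma called 0 of 35 genes (0.00655% of all genes) and 0 at an unadjusted p under 0.05 (7.81% of all genes). This does not show that the experiments were alike.

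Arrays with the same title number deviated together in the restoration experiment. Fitting that number as a block called 31 genes, 29 lower and 2 higher, against 15.4% and 11.3% of all genes. The genes gained were Bard1, Xrcc3, Rmi1, Fancl and Atm, which were lower, and Mus81 and Msh6, which were higher. Without 1 array at a time 16 to 24 genes were called; the lowest number was reached without WT replicate 2. In the second experiment the range was 13 to 21, with 13 without WT replicate 5 and 21 without WT replicate 6, whose labels disagree, and 12 genes were called when Xist was a covariate. In it all 3 WT arrays and 0 of the 3 Null arrays were high in Xist, so sex and genotype cannot be told apart there.

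**Figure D2:**
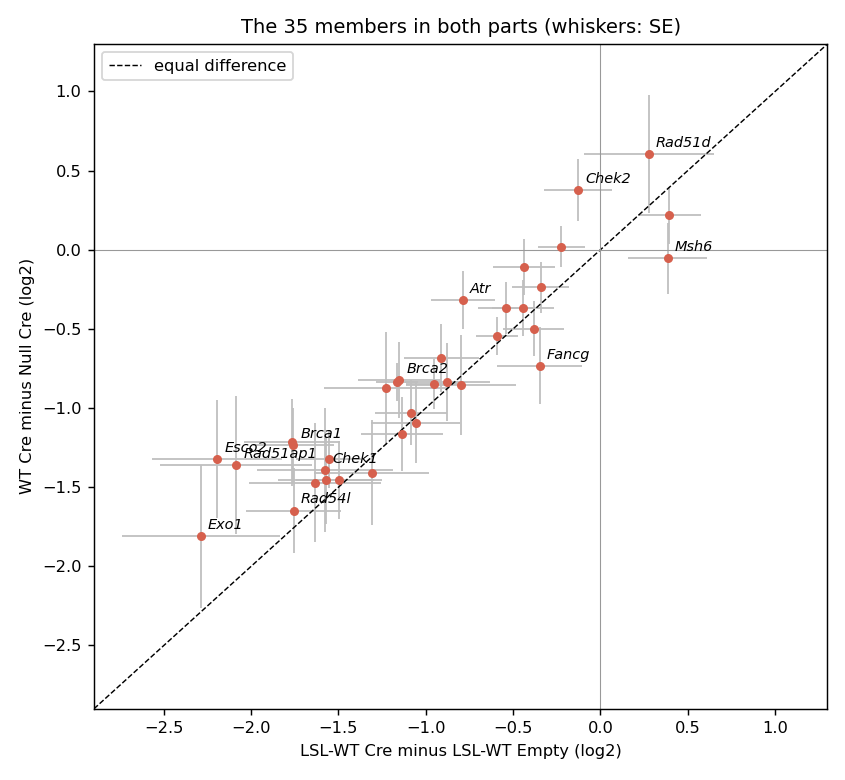
Log2 difference of each of the 35 genes on restoring p53 (LSL-WT Cre minus LSL-WT Empty, horizontal axis) and between WT and p53-null cells (WT Cre minus Null Cre, vertical axis), with SE of the fit as bars. 32 of the 35 genes have the same sign on both axes, and Exo1 is the lowest on each.

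In 53,54 cells, whose p53 keeps the first activation domain, the set was also low. Against Null 27 genes fell and 2 rose, against 10.3% of all genes lower and 9.22% higher; the median was -1.08 and the range -2.48 to 0.97. At least 2-fold falls were found for 21 genes, against 2.40% of all genes. All 3 arrays of 53,54 lay below all 6 Null arrays for 25 genes, against 10.4% of all genes. The comparison shares its Null arrays with that of WT.

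The largest falls in 53,54 were those of Esco2 (-2.48 ± 0.33, adjusted p = 1.18e-05), Exo1 (-2.42 ± 0.38, adjusted p = 7.16e-05) and Rad51ap1 (-2.15 ± 0.40, adjusted p = 4.00e-04). The Esco2 arrays were 4.76, 4.12 and 5.31, all below the lowest Null array at 6.93. In the BRCA role all 5 genes fell: Brca1 (-1.89 ± 0.22, adjusted p = 2.74e-06), Brip1 (-1.69 ± 0.16, adjusted p = 9.73e-08), Palb2 (-1.34 ± 0.21), Brca2 (-1.28 ± 0.20) and Bard1 (-0.48 ± 0.15, adjusted p = 0.0281). Rad51b (-1.09 ± 0.18) and Rad51c (-0.83 ± 0.10) fell, while Xrcc3 (-0.16 ± 0.15, adjusted p = 0.57) and Rad51d (0.28 ± 0.32, adjusted p = 0.649) did not pass. The other Rad51d probe set that was higher in WT was also higher in 53,54 (0.49 ± 0.14, adjusted p = 0.0179 over all probe sets tested). Falls were also measured for Rad54l (-1.72 ± 0.23), Rad54b (-1.73 ± 0.23), Blm (-1.60 ± 0.21) and Recql4 (-1.08 ± 0.11). Rmi1 did not pass (-0.37 ± 0.14, adjusted p = 0.0676).

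Of the Fanconi core, Fancb (-1.88 ± 0.31), Fanca (-1.09 ± 0.18), Fancl (-0.92 ± 0.26), Fancg (-0.77 ± 0.21) and Fancm (-0.47 ± 0.15) fell. The other Fancg probe set did not pass (-0.34 ± 0.15, adjusted p = 0.183 over all probe sets tested). Fancc stayed at 7.40, 7.40 and 7.53, within the range of WT and close to that of Null (-0.15 ± 0.12, adjusted p = 0.424). Fancd2 (-1.35 ± 0.27), Fanci (-1.04 ± 0.20) and Usp1 (-1.27 ± 0.30) fell. Of the nuclease pair, Eme1 lay at 6.41, 6.70 and 7.41 (-1.62 ± 0.24) and Mus81 at 8.69, 9.01 and 9.12 (0.53 ± 0.16, adjusted p = 0.0208). Among the checkpoint genes Chek1 (-1.57 ± 0.32), Topbp1 (-1.07 ± 0.14) and Atr (-0.83 ± 0.18) fell, whereas Atm (-0.40 ± 0.15, adjusted p = 0.0568) and Chek2 (0.15 ± 0.18, adjusted p = 0.677) did not pass. The other Atr probe set with signal on all 23 arrays did not pass (-0.19 ± 0.14, adjusted p = 0.508 over all probe sets tested). Rad18 fell by 1.07 ± 0.20.

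Msh6 was the gene that rose most. Its 53,54 arrays lay at 11.28, 10.92 and 10.61, above the highest Null array at 10.25, a difference of 0.97 ± 0.21 (adjusted p = 0.00164). The call ended on leaving out 1 array for 6 genes, Bard1, Fancg, Fancl, Fancm, Usp1 and Mus81, whose highest adjusted p on doing so were between 0.0563 and 0.188. The arrays concerned were 53,54 replicates 2, 3 and 4 and Null replicates 1, 3, 5 and 6. Arrays of the same title number deviated together in this comparison, and a fit with the number as a block called 29 lower and 3 higher, against 16.9% and 14.9% of all genes. Rad51d (0.42, adjusted p = 0.0193), Rmi1 (-0.41, adjusted p = 2.80e-04) and Atm (-0.45, adjusted p = 1.45e-04) passed in that fit.

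Set directly against WT, 53,54 was not separated by any gene: limma called 0 of 35 genes (0.367% of all genes), and 3 had an unadjusted p under 0.05 (7.21% of all genes). The median was -0.16, from -0.72 for Esco2 to 0.81 for Msh6. The Esco2 interval is wide (-0.72 ± 0.33, adjusted p = 0.661), as is that of Msh6 (0.81 ± 0.21, adjusted p = 0.113), so equal levels are not shown. Without WT replicate 2, 1 gene was called.

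In 25,26 cells, whose p53 keeps the second domain, the set lay between Null and WT. Against Null 5 genes fell and 1 rose, against 1.28% of all genes lower and 3.02% higher, and 0 fell 2-fold, against 0.0262% of all genes. The median over the set was -0.47. For 13 genes all 25,26 arrays lay below all Null arrays, against 1.81% of all genes. The mean of 25,26 lay between those of Null and WT for 28 of 35 genes. Such genes were not counted over all genes, so this is not shown to be particular to the set.

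The genes called in 25,26 against Null were Brip1 (-0.73 ± 0.13, adjusted p = 0.00199), Recql4 (-0.40 ± 0.09, adjusted p = 0.0141), Rad51c (-0.38 ± 0.09, adjusted p = 0.0147), Rad51b (-0.64 ± 0.15, adjusted p = 0.0163), Atr (-0.55 ± 0.15, adjusted p = 0.0409) and, higher, Msh6 (0.68 ± 0.18, adjusted p = 0.0296). Recql4 lay at 6.84, 6.66, 6.70, 6.66 and 6.87, between all WT and all Null arrays. Rad51c lay at 7.09, 7.22, 7.28, 7.23 and 7.36, below all Null arrays and in the upper part of the WT range or above it. Atr lay at 7.44, 7.41, 7.93, 7.87 and 7.89, as low as in WT. The other Atr probe set with signal on all 23 arrays did not pass here (-0.18 ± 0.12, adjusted p = 0.621 over all probe sets tested). Msh6 lay at 10.64, 11.001, 10.90, 10.38 and 10.31, above all Null arrays. Larger mean differences of Esco2 (-0.93 ± 0.28, adjusted p = 0.0706) and Exo1 (-0.89 ± 0.33, adjusted p = 0.148) did not pass. A second Exo1 probe set, with signal on all 23 arrays, did pass (-1.04 ± 0.22, adjusted p = 0.0131 over all probe sets tested). Other probe sets of Rad51ap1 (-0.71 and -0.92), Fancd2 (-0.60) and Rad18 (-0.63 and -0.54) also passed as lower, and the second of Mus81 (0.39) as higher. The chosen probe sets of these genes did not pass, nor did all of their further ones.

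This count depended strongly on the fit. Without 25,26 replicate 2 it was 3 genes in place of 6, as the calls of Rad51b, Atr and Msh6 ended (highest adjusted p on leaving out 1 array between 0.0650 and 0.129). The call of Msh6 also ended without 25,26 replicate 1 or 3 or Null replicate 1, 5 or 6, where 0 genes were called higher. Lower calls numbered 4 without 25,26 replicate 1 or 3 or Null replicate 2 or 3. The count was 1 gene when Xist was a covariate and also with the p53-null Cre arrays alone as Null. It was 25 in a fit with title numbers as a block, which called 14.2% of all genes; not all numbers paired these groups.

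Direct tests placed 25,26 above WT. 17 of 35 genes were higher and 0 lower, against 4.34% of all genes higher, with a median of 0.52. Recql4 was higher by 0.60 ± 0.09 (adjusted p = 3.84e-04), Brca1 by 1.08 ± 0.19 (adjusted p = 0.00131), Rad54l by 1.03 ± 0.19 (adjusted p = 0.00213), Brip1 by 0.71 ± 0.13 (adjusted p = 0.00234) and Topbp1 by 0.62 ± 0.12 (adjusted p = 0.00261). Atr did not pass (0.01 ± 0.15, adjusted p = 0.99). Leaving out 1 array gave 10 to 20 genes, with 10 without 25,26 replicate 5, and using the LSL-WT Cre arrays alone as WT gave 9. The title numbers paired these groups, and the block gave 18 genes, all higher, against 7% of all genes; Palb2 (0.54, adjusted p = 0.00723) and Msh6 (0.69, adjusted p = 0.00281) were gained there and Rad51ap1 was lost (0.84, adjusted p = 0.0773).

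The 25,26 cells were also above the 53,54 cells, with 14 genes higher and 0 lower against 2.5% of all genes higher and a median of 0.68. Brca1 differed by 1.47 ± 0.23 (adjusted p = 5.64e-04), Recql4 by 0.68 ± 0.11 (adjusted p = 8.69e-04) and Brip1 by 0.97 ± 0.16 (adjusted p = 0.00109). With the title number, which paired these groups, as a block, 22 genes were higher against 5.11% of all genes, with Brca2, Palb2, Fancl, Fancd2, Usp1, Atm, Chek1 and Rad18 added. Leaving out 1 array gave 4 to 20 genes, with 4 without 53,54 replicate 3, 6 without 53,54 replicate 2 and 20 without 25,26 replicate 2.

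QM cells, with both domains mutated, were not separated from Null by any gene. limma called 0 of 35 genes, against 2 of all genes tested (0.0131%), and 1 gene of the set had an unadjusted p under 0.05 (2.47% of all genes). That gene was Recql4, at 7.51, 7.35 and 7.39 (0.27 ± 0.11), which was also the largest difference in size. The median was -0.03. With 3 QM arrays, equal levels are not shown. Against WT 24 genes were higher and 0 lower, against 8.16% of all genes higher, with a median of 0.93. Exo1 was higher by 2.05 ± 0.38 (adjusted p = 8.50e-04), Rad51ap1 by 1.85 ± 0.40 (adjusted p = 0.0029) and Recql4 by 1.27 ± 0.11 (adjusted p = 6.60e-08).

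Against QM, whose arrays are not among the Null arrays, 53,54 was lower in 23 genes and higher in 1, Msh6 (0.86), against 7.63% and 5.69% of all genes; the median was -1.13. 25,26 was lower in 1 gene, Recql4 (-0.67 ± 0.11, adjusted p = 0.00274), against 0.0786% of all genes, with a median of -0.43. Leaving out 1 array ended the call of Msh6 in 53,54 against QM in 4 of the refits (adjusted p up to 0.106).

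**Figure D3:**
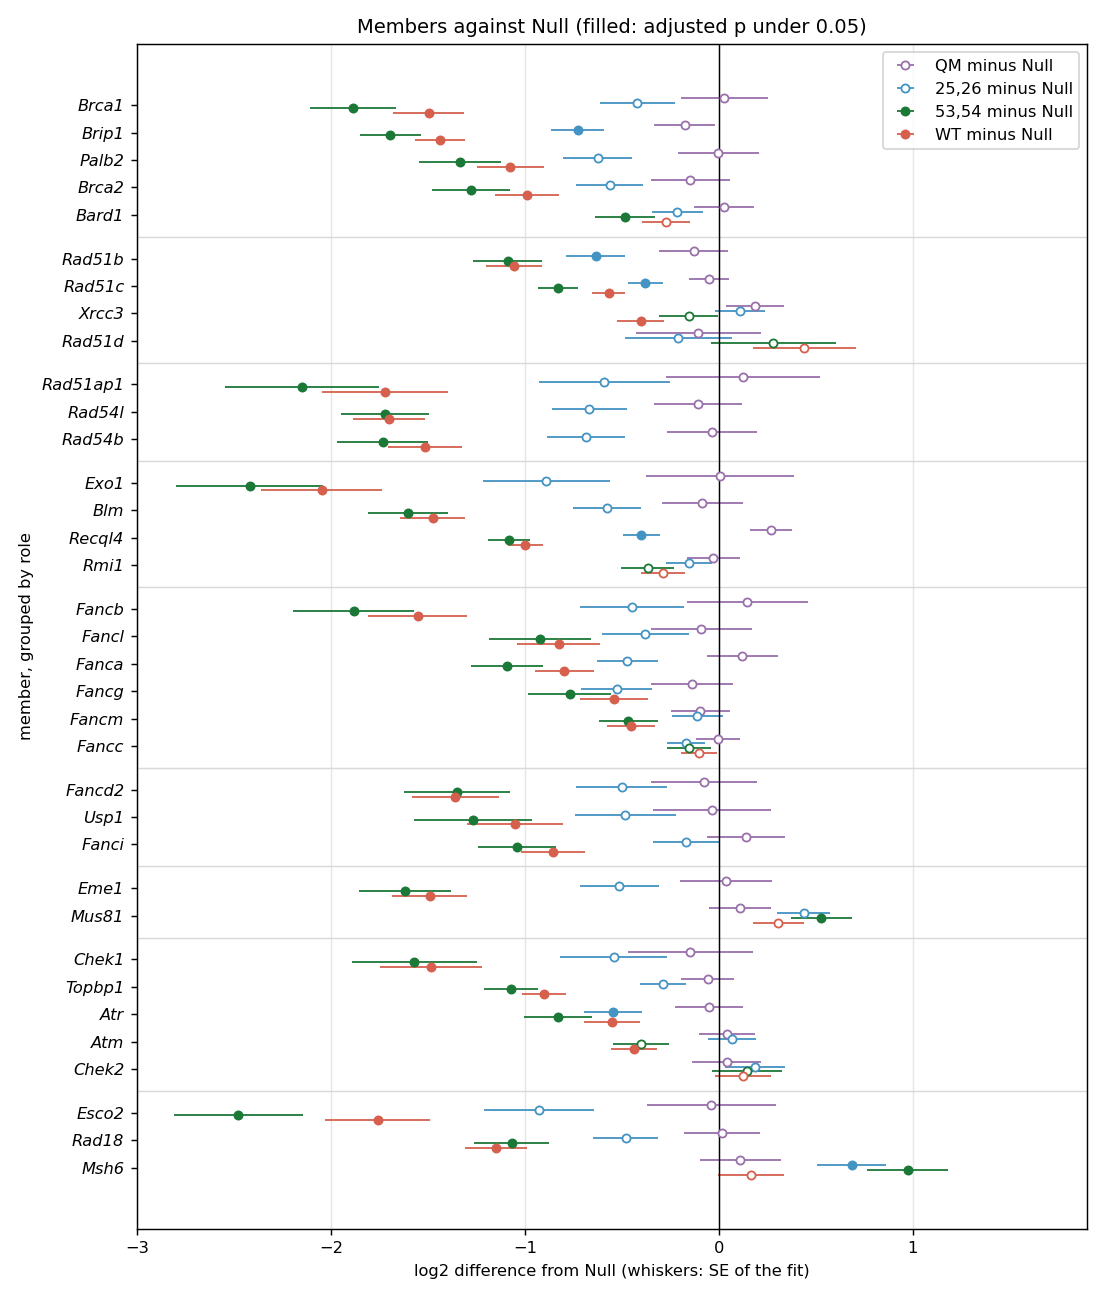
Log2 difference from Null (horizontal axis) with SE of the fit for the 35 genes (vertical axis, grouped by role) in QM, 25,26, 53,54 and WT; filled points have an adjusted p under 0.05. WT and 53,54 lie mostly between -0.5 and -2.5, 25,26 mostly between 0 and -1 and QM near 0, and Msh6, Mus81, Rad51d and Chek2 do not go below 0 in WT.

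Msh6, Mus81, Rad51d, Chek2, Fancc, Rmi1 and Bard1 were the 7 genes with no call in WT against Null. They were measured at levels like those of the others: in Null the set's means ran from 5.31 for Bard1 to 11.87 for Usp1, and Msh6 stood at 9.96. Rmi1 had a second probe set with a difference of -0.44 in WT (adjusted p = 0.00476 over probe sets). Other probe sets disagreed with the chosen one in 4 genes. For Fancc it was a set with signal on all 23 arrays (0.07), while those of Chek1 (0.11), Fancl (0.05) and Rad51d (-0.09) were dim. In all, 25 genes had 48 further probe sets. Of these, 27 were above the low-signal limit on all arrays and 26 of the 27 had the same direction in WT. 18 of them belonged to genes called lower in WT, and 14 of these 18 were also called lower.

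The set's level was summed up per array as the mean log2 level of the 35 genes. It was 8.17 (8.10 to 8.25) in Null, 8.16 (8.09 to 8.20) in QM, 7.80 (7.44 to 7.94) in 25,26, 7.27 (6.82 to 7.49) in WT and 7.14 (6.97 to 7.45) in 53,54. Null with QM, and WT with 53,54, overlapped in this order, and 25,26 overlapped WT and 53,54 only through its lowest array. A list of proliferation genes, which act in DNA replication and mitosis, moved in the same groups. Of 17 measured, 15 fell in WT (median -1.41), 16 in 53,54 (median -1.80), 0 in 25,26 (median -0.51) and 0 in QM (median 0.03). The shares of all genes that fell were 11.8% in WT, 10.3% in 53,54 and 1.28% in 25,26. The mean level of all genes was not compared. The mean level of the proliferation list was 11.02 (10.82 to 11.19) in Null, 11.03 in QM, 10.57 (9.92 to 10.82) in 25,26, 9.72 (8.80 to 10.10) in WT and 9.44 (9.09 to 9.96) in 53,54. Mcm3, of the replicative helicase, fell by 1.31 ± 0.17 in WT (adjusted p = 6.26e-06). Plk1, a mitotic kinase, fell by 1.78 ± 0.23 (adjusted p = 7.72e-06) and Cdc45, a replication factor, fell by 1.63 ± 0.22 (adjusted p = 1.20e-05). The part of proliferation in the falls of the recombination genes was not tested.

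Array number 2 in the titles stood low within most sample types. Its mean over the 35 genes was the lowest in 6 of 7 subgroups, the exception being 53,54 (7.004 against 6.97 in the lowest of the others). In LSL-WT cells with Cre it was 6.82, against 7.38 for the next, and in 25,26 cells 7.44, against 7.82. Without all number-2 arrays 26 genes were still called lower in WT against Null and the median was -0.84. Adding Xist as a covariate left the count at 28.

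**Figure D4:**
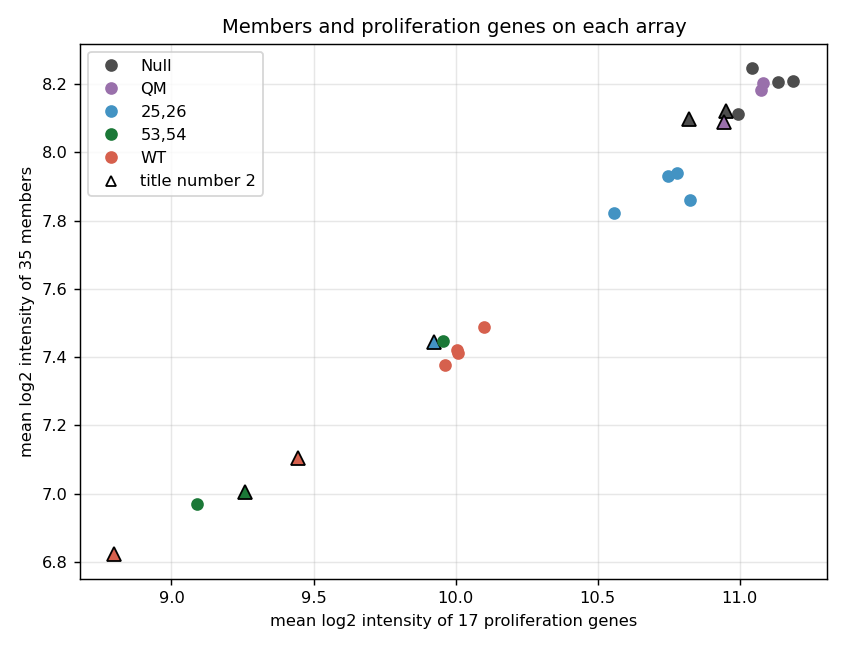
Mean log2 level of the 35 recombination and Fanconi genes (vertical axis) against that of 17 proliferation genes (horizontal axis) on each of the 23 arrays, coloured by group; triangles are arrays with number 2 in their title. Null and QM arrays lie together at the top right, WT and 53,54 at the lower left and 25,26 between them, with a number-2 array of WT lowest.

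Other repair genes were described from lists chosen by function. Of 33 further recombination and Fanconi genes tested, 16 fell in WT and 0 rose, with a median of -0.40. Of all genes tested, 11.8% were lower in WT, 10.3% in 53,54 and 1.28% in 25,26. The leading ones were Gen1, a nuclease for joined molecules (-1.56 ± 0.16, adjusted p = 3.28e-07), Rpa3, a subunit of the protein that coats single strands (-1.15 ± 0.15, adjusted p = 1.12e-05), and Hells, a chromatin helicase (-1.23 ± 0.19, adjusted p = 5.15e-05). In 53,54 16 of the 33 fell, in 25,26 3 and in QM 0. Of 10 checkpoint clamp and mediator genes 5 fell in WT, led by Timeless (-1.23 ± 0.11, adjusted p = 4.26e-08) and its partner Tipin (-1.02 ± 0.16), which steady replication forks, and by Etaa1 (-1.55 ± 0.15), an activator of ATR.

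The lists of other repair routes were described in the same way, and their falls stand against 11.8% of all genes lower in WT. Lists of few genes give only a rough share. In end joining 2 of 8 fell, Xrcc6 (-0.85 ± 0.15) and Xrcc5 (-0.38 ± 0.12), which encode the Ku proteins, while Polm did not pass (-0.23 ± 0.11, adjusted p = 0.138). In mismatch repair 2 of 4 fell, Pms2 (-0.75 ± 0.12) and Pms1 (-0.48 ± 0.16), and Msh3, which recognises mismatched loops, did not pass (-0.32 ± 0.12, adjusted p = 0.0537). In base excision repair 9 of 13 fell, with Parp1 (-0.84 ± 0.11) and Parp2 (-0.85 ± 0.11), which mark DNA breaks, and Ung (-0.99 ± 0.19), which removes uracil. In nucleotide excision repair 3 of 12 were higher and 1 was lower, against 10.9% and 11.8% of all genes, 8 were not called, and the median was 0.13. Ercc5, the nuclease XPG, rose by 2.17 ± 0.10 (adjusted p = 1.98e-12), Ercc4 by 0.77 ± 0.14 (adjusted p = 2.95e-04) and Xpc, the damage sensor, by 0.47 ± 0.11 (adjusted p = 0.00448). Ercc5 was also higher in 25,26 (1.49) and in 53,54 (2.75). Lower RNA in WT was therefore not a feature of all repair genes measured.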

How the data were processed

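RNA of mouse embryonic fibroblasts was measured in 23 samples, on 1 Affymetrix array each. Per probe set, the authors deposited an intensity on a linear scale, made by RMA per the submitters' processing notes; the version and options of RMA are not given in the sources used here. They were taken to log2. Of 45101 probe sets, 64 controls were left out, and 34945 carried 1 gene symbol, 932 several and 9160 none; only the first kind was used, with the probe set of highest mean per gene. Genes were tested when at least 3 arrays exceeded the 30th percentile (log2 4.79).

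A 5-group model over all arrays and a 7-subgroup model were fitted with limma 3.58.1 in R 4.3.3, with Benjamini-Hochberg adjustment over 15266 genes. The 5-group comparisons with Null were checked on simulated data. The simulated arrays were drawn independently, so the check does not cover deviations shared by arrays of the same title number. The members and lists (roles, other repair lists, proliferation, p53 response, fibroblast, epithelial, macrophage and endothelial markers) were chosen with earlier results of these data known. Named with full values were up to 3 members per role with the largest statistic in WT against Null, all members called against Null or not called in WT, those with discordant probe sets, and 3 genes per other list.

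Arrays sharing a title number were treated as paired where every same-number correlation of deviations from group means exceeded 0.1. At least 3 same-number pairs were also required. The comparisons that met this were 53,54 with Null, 25,26 with WT, 25,26 with 53,54, and the restoration experiment, where all 3 exceeded it (0.72 to 0.80). In 53,54 with QM and in WT Cre with Null Cre every correlation exceeded 0.1, but only 2 pairs existed. There the block called 31 and 26 genes of the set, against 23.5% and 28.1% of all genes. Epithelial and macrophage marker means stayed between 6.88 and 7.67 and between 5.25 and 5.80. p53 and Ras transcripts are not analysed here.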

Additional observations from a re-analysis of the deposited data

Results flagged for a closer look

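In 10 of 105 sets of arrays of 1 group and gene, 1 array stood apart from the rest by more than Dixon's 95% limit allows. Chance flags about 1 in 20 of independent sets, but these sets share their arrays and are not independent. In 25,26, replicate 2 was the low array for 6 genes: Rad51ap1 at 7.36 (next 8.33), Rad54b at 5.40 (5.84), Exo1 at 6.73 (8.16), Blm at 7.23 (7.996), Eme1 at 7.53 (7.97) and Chek1 at 7.51 (8.39). In WT, replicate 2 was low for Brca1 at 6.83 (7.81) and Bard1 at 4.51 (5.02). In Null, replicate 5 was low for Rad54l at 8.02 (8.46) and replicate 1 high for Fancc at 8.002 (7.59). What sets these arrays apart was not tested.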

How the results depend on the processing

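The number of genes of the set called was recomputed under each alternative. Of 151 such counts, 128 stayed within 1.5 times the first value and 23 did not; WT against Null gave 18 to 32. Testing only genes with a mean above the median of all genes leaves 24 of the 35 and gave 18 for WT against Null, 3 for 25,26 against Null, 0 for 25,26 against QM, 9 for 25,26 against 53,54 and 14 for WT Cre against Null Cre. Of all genes kept, 2943, 611, 104, 615 and 2008 were called, where the first fit called 3465, 656, 103, 713 and 2433. The mean of all probe sets gave 10 for 25,26 against Null and 2 for 25,26 against QM. Over all genes it called 652 and 105, where the first fit called 656 and 103. For WT against Null it gave 28, with 27 lower and 1 higher, Mus81 (0.34, adjusted p = 0.0129). The title number as a replicate block gave 25 for 25,26 against Null, 1 for 53,54 against WT, 14 for 25,26 against QM and 22 for 25,26 against 53,54. Over all genes it called 2167, 158, 603 and 1361, where the first fit called 656, 56, 103 and 713. For WT against Null it gave 32, with 30 lower and 2 higher, Mus81 (0.31, adjusted p = 0.0260) and Rad51d (0.30, adjusted p = 0.0358). Not all numbers paired the samples in the first 3 of these or in WT against Null. It changed no other call of the paired comparisons than those named above. Array weights gave 12 for 25,26 against Null, 4 for 53,54 against WT, 3 for 25,26 against QM and 31 for 25,26 against 53,54 (2 lower, 29 higher). These weights raised the calls over all genes as well, to 1435, 734, 506 and 3974 from 656, 56, 103 and 713. Xist as a covariate, chosen after seeing the data, gave 1 for 25,26 against Null and 12 for WT Cre against Null Cre. Over all genes it called 346 and 1306, where the first fit called 656 and 2433. The compared arrays alone gave 12 for 25,26 against Null, 11 for 25,26 against WT and 15 for the restoration experiment. Of all genes they called 637, 648 and 807, where the first fit called 656, 1176 and 1785. Without the number-2 arrays 25,26 against QM gave 0; with Null Cre alone as Null 25,26 against Null gave 1; with LSL-WT Cre alone 25,26 against WT gave 9. These last fits called 79, 422 and 505 of all genes, where the first fit called 103, 656 and 1176. The cause of the changes in count was not tested.

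Leaving out 1 array gave 26 to 29 for WT against Null, 3 to 6 for 25,26, 24 to 31 for 53,54 and 0 for QM against Null, 10 to 20 for 25,26, 0 to 1 for 53,54 and 21 to 26 for QM against WT, 1 for 25,26 and 19 to 27 for 53,54 against QM, 4 to 20 for 25,26 against 53,54, 16 to 24 for the restoration experiment and 13 to 21 for WT Cre against Null Cre. Calls over all genes moved too. They ran from 3036 to 3472 for WT, 415 to 593 for 25,26, 1923 to 2985 for 53,54 and 0 to 2 for QM against Null. Against WT they ran from 713 to 1329 for 25,26, 11 to 143 for 53,54 and 1399 to 2141 for QM. Between 25,26 and 53,54 they ran from 196 to 869, on restoration from 994 to 1661. Of 864 values of single genes named under WT against Null, 839 kept their side of the threshold, 9 passed newly and 16 no longer passed. In 0 did a gene called in either fit reverse its direction. A change of sign in a gene called in neither fit was not counted. With 3 to 6 arrays a group, small differences may go undetected.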
